A study of Mus musculus with 11 samples.

Results

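Transcripts of 10 receptors of the TNF receptor superfamily that are known from B cells were followed in germinal center B cells lacking either of a pair of lysine acetyltransferases, CREBBP or EP300. The 10 genes were picked by symbol, with earlier results of these data known: Cd40, Tnfrsf13b, Tnfrsf13c, Tnfrsf17, Tnfrsf14, Fas, Tnfrsf1a, Tnfrsf1b, Cd27 and Ltbr. All 10 were found among the 48593 genes of the deposited table. Mice were immunized with sheep red blood cells, and 12 days later B220+PNA+CD95+ cells of the spleen were sorted for RNA sequencing. The 5 WT libraries came from Crebbp+/+;Ep300+/+;Cg1cre/+ mice, labelled as littermates from crosses of Crebbp carriers. The 3 Crebbp-KO libraries (named CBP-KO) came from Crebbpfl/fl;Ep300+/+;Cg1cre/+ mice, and the 3 Ep300-KO libraries (named p300-KO) from Crebbp+/+;Ep300fl/fl;Cg1cre/+ mice. Every group thus carried the Cre, which is driven from the Cg1 immunoglobulin constant gene and acts in B cells that transcribe it. The labels name no littermate control for the Ep300-KO mice. Cross and genotype therefore cannot be told apart where Ep300-KO is compared with WT or with Crebbp-KO. The labels give no age, sex or batch, and do not say whether each library came from a single mouse. The p-values measure the spread between these libraries only.

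Receptors of this family bind trimeric ligands of the TNF superfamily outside the cell. Most recruit TRAF adaptors inside it, which lead to the NF-kB transcription factors, while FAS and TNFR1 carry a death domain. In the germinal center, CD40 receives the help of T cells, BAFF-R sustains survival in response to BAFF, HVEM (Tnfrsf14) engages BTLA, and FAS removes cells by apoptosis. CD95 is the protein product of Fas and was part of the sort gate, so the cells had been selected for its presence on the surface.

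The libraries held from 53550726 to 132861266 reads. Ep300 was lower in Ep300-KO than in WT (log2 -0.55, limma adjusted p = 0.00015). Crebbp was not past the test in Crebbp-KO against WT (log2 -0.10, limma adjusted p = 0.459), so RNA level against WT gave no check of those labels. Crebbp was higher in Ep300-KO than in Crebbp-KO (log2 0.34, limma adjusted p = 0.0224). It was also above WT in Ep300-KO, without passing (log2 0.24, limma adjusted p = 0.0551). The B cell genes Cd79a, Cd79b, Ms4a1, Ptprc and Pax5 summed to between 356049 and 467214 normalized counts in every library, and the germinal center genes Bcl6, Gcsam, S1pr2, Mybl1, Rgs13, Mef2b and Fas to between 181427 and 233899. Of these 7 germinal center genes, Rgs13 and Fas fell in both knockouts and S1pr2 rose in Ep300-KO. Of the B cell genes Cd79a, a chain of the antigen receptor, fell in Crebbp-KO (log2 -0.33, limma adjusted p = 0.0210) with libraries that overlapped those of WT. Of 12 macrophage and monocyte markers, 10 were tested, and in Crebbp-KO 4 of them fell and 0 rose, where 4.88% of all tested genes fell, with 1 called without CBP-KO_53 and 2 without CBP-KO_55. Their sum was 9423 in WT_46, from 3524 to 4974 in the other WT libraries, 1984 to 2899 in Crebbp-KO and 2420 to 3267 in Ep300-KO. The 13 T cell markers summed to between 13698 and 16962 in WT, 8030.0 to 8923 in Crebbp-KO and 9154 to 10159 in Ep300-KO, with most of the sum in Lck and Cd2, while Cd3e was 0 in every Crebbp-KO library and at most 5.12 elsewhere. Dendritic cell markers summed to between 4315 and 5728 in WT, 2964 to 3485 in Crebbp-KO and 2635 to 2786 in Ep300-KO. The 8 plasma cell markers summed to between 71191 and 87998 in WT, 78803 to 90903 in Crebbp-KO and 106204 to 121929 in Ep300-KO. In Ep300-KO 4 of the 8 rose and 0 fell, where 5.84% of all tested genes rose: Slpi (log2 2.76), Sdc1 (1.60), Xbp1 (0.48) and Jchain (0.32). The part of these other cells in the receptor results was not tested, and in bulk RNA fewer cells of a type and less RNA per cell cannot be told apart. The Xist transcript exceeded the sum of 4 Y-linked transcripts in 3 libraries of WT and 2 of each knockout, and lay below it in WT_41, WT_288, CBP-KO_1 and p300-KO_287. In p300-KO_18 both were high (Xist at 98751 and the Y-linked sum at 9852). Results are therefore also given without WT_46 and p300-KO_18, and with the Xist-high libraries alone, where these change a call. The Xist-high set still includes both WT_46 and p300-KO_18.

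Promoter sequences show what precedes the RefSeq start of 4 receptors that fell, set beside Tnfrsf13b, a close functional relative of Tnfrsf13c that did not pass the test. RefSeq windows of the mouse build GRCm38.p6 were matched for 9 of the 10 genes, all except Cd40. The 250 bases before the start annotated in RefSeq were searched on both strands for 4 motifs. The GENCODE start differs from that of RefSeq for Tnfrsf13c, Fas, Cd27, Tnfrsf17, Tnfrsf14 and Tnfrsf1a. The windows of Tnfrsf14 and Tnfrsf1a lie inside the gene spans given below, so their matches precede the RefSeq start only. The motifs were kB, the full cAMP response element CRE, its core, and the interferon-responsive ISRE core. The kB motif, a loose form of the recognition site of NF-kB, was GGG and CC with 5 bases of any kind between them. The full CRE was TGACGTCA and its core TGACG. The ISRE core was GAAA and GAAA with 2 bases of any kind between them. The CRE core is contained in the full CRE. Sequences are printed 5′ to 3′ on the strand of the gene, in lower case with matches to any of the motifs in capitals.
Tnfrsf13c, chr15:82224381-82224630, minus strand: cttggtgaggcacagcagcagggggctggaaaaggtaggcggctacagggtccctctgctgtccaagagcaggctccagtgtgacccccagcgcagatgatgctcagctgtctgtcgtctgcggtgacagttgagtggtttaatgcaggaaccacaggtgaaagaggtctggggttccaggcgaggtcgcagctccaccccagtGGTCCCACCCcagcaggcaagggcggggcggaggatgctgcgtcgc
Tnfrsf14, chr4:154928078-154928327, minus strand: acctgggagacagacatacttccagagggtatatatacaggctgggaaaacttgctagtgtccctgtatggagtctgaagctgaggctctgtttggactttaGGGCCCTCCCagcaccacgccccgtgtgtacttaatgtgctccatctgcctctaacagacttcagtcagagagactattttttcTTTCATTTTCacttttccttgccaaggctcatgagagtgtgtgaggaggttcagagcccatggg
Fas, chr19:34290409-34290658, plus strand: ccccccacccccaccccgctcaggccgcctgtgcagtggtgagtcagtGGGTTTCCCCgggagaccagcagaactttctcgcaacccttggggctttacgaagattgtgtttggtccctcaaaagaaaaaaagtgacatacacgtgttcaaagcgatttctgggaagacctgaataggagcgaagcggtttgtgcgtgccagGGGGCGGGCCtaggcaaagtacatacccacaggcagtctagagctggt
Tnfrsf1b, chr4:145246871-145247120, minus strand: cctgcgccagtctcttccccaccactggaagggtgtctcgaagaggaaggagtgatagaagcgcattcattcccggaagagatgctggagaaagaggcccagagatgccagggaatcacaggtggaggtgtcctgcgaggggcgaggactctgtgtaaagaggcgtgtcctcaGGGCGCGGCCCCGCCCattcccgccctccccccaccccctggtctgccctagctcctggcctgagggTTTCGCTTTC
Tnfrsf13b, chr11:61126505-61126754, plus strand: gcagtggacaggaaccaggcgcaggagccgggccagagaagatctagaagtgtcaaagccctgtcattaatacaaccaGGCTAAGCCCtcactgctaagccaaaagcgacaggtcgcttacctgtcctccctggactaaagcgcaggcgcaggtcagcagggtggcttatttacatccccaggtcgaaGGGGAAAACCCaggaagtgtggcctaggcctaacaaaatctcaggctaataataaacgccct
A kB match was found in 8 of 9 windows, all except that of Tnfrsf17, while 45.8% of all 32851 windows of this length in the table held one. The shares were not matched for GC content, which ran from 49.2% to 69.2% over the 9 windows, against a median of 52.4% over all windows. The Fas window held GGGTTTCCCC, which starts 202 bases before the annotated start and matches on both strands. In Tnfrsf13b the kB matches GGGGAAAACC and GGGAAAACCC overlap and start 62 and 61 bases before it. ISRE core matches stood in Tnfrsf14, Tnfrsf1b and Tnfrsf17, against 2.98% of all windows. Neither the full CRE (1.55% of all windows) nor its core (17.8%) was found in any of the 9 windows. CG pairs numbered 12 in Tnfrsf1b, 11 in Fas, 10 in Tnfrsf13c, 8 in Tnfrsf13b and 2 in Tnfrsf14, where the median over all windows was 6. These matches are a description of the letters, and binding was not measured.

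The level of each receptor is best compared per length of exon, as normalized read count per kilobase of all annotated exon bases, given as mean ± SD over the 5 WT libraries. Tnfrsf13c, the BAFF receptor (chromosome 15, 82221743 to 82224369 on GRCm38), was the highest at 18008 ± 1877 per kilobase. Fas (chromosome 19, 34290666 to 34327772) at 3308 ± 156 and Tnfrsf13b, which encodes TACI (chromosome 11, 61126755 to 61149372), at 3294 ± 894 overlapped each other. Cd40 (chromosome 2, 165055627 to 165072948) stood at 1311 ± 194 and overlapped with Tnfrsf14 (chromosome 4, 154921933 to 154928563) at 1007 ± 142. Tnfrsf1b, which encodes TNFR2 (chromosome 4, 145213463 to 145246870), followed at 508 ± 37.1, and Cd27 (chromosome 6, 125232622 to 125237010), a receptor of memory and activated lymphocytes, at 49.4 ± 6.27. Each of these neighbours in the order was separated without overlap, except for the pairs named. In both knockouts Tnfrsf13c stayed the highest, and the next pair came apart. Tnfrsf13b lay between 3349.6 and 3741 per kilobase in Crebbp-KO against 2297 to 2971 for Fas, and between 3833 and 3927 in Ep300-KO against 2529.9 to 2681.

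The remaining 3 receptors were near 0 in every library. Tnfrsf17, which encodes the plasma cell receptor BCMA (chromosome 16, 11313812 to 11320074), had 0 to 6 reads per library in WT, 0 to 6 in Crebbp-KO and 4 to 14 in Ep300-KO. Tnfrsf1a, which encodes TNFR1 (chromosome 6, 125349362 to 125362484), had 0 to 8 reads in WT, 0 to 4 in Crebbp-KO and 4 to 10 in Ep300-KO. Ltbr, the lymphotoxin beta receptor of stromal and myeloid cells (chromosome 6, 125306571 to 125313885), had 0 to 4 reads in WT, 0 in all 3 Crebbp-KO libraries and 0 to 2 in Ep300-KO. A count of 0 allows up to 3 reads per library, which is 2.95 to 3.62 normalized counts in Crebbp-KO, for counting error only. This bound treats reads as independent, and it would be higher if both reads of a fragment were counted. The means of all 3 genes stayed below the minimum of 10 for a test, and differences between groups were not detectable at this depth.

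**Figure D1:**
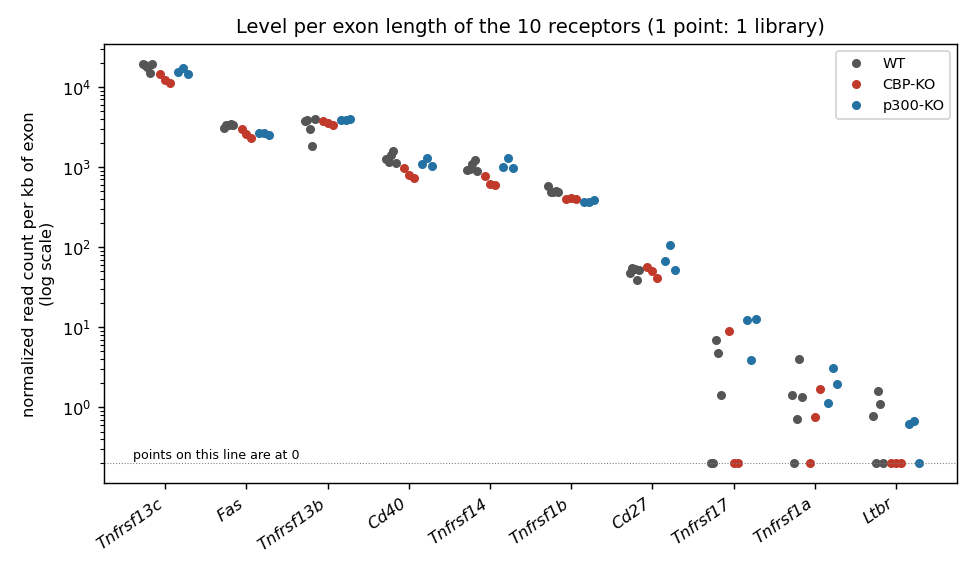
Normalized read count per kilobase of exon on a log axis for the 10 receptors, ordered by their WT mean, with 1 point for each library of WT, CBP-KO and p300-KO. The BAFF receptor gene Tnfrsf13c lies above all others in every group, and Tnfrsf17, Tnfrsf1a and Ltbr lie lowest, with libraries at 0 drawn on the dotted line.

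Loss of Crebbp was compared with WT to ask which receptors depend on this acetyltransferase in germinal center B cells. Relative to its WT mean, Cd40 fell by 35.8%, Tnfrsf14 fell by 34.3%, Tnfrsf13c fell by 29.6%, Fas fell by 20.7% and Tnfrsf1b fell by 20.7%, and 0 receptors rose. Of the 10 genes 7 were tested, and of these 5 fell and 2, Tnfrsf13b and Cd27, did not pass. Across all 16515 tested genes 8.36% passed the same test (limma, adjusted p below 0.05), 4.88% lower and 3.48% higher. The receptors were chosen with earlier results of these data known, so setting them against these shares is only a description. The 7 receptors had a median log2 fold change of -0.34, where that of all tested genes was 0.01. All log2 differences were computed after 1 was added to each value.

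Cd40, the receptor for T cell help, stood at 4285, 3995, 4864, 5398 and 3779 normalized counts in WT_4, WT_7, WT_41, WT_46 and WT_288. It stood at 3361, 2746 and 2495 in CBP-KO_1, CBP-KO_53 and CBP-KO_55, so every knockout library lay below every WT library. The means were 4464 ± 662 (SD, n = 5) and 2867 ± 446 (n = 3), a log2 fold change of -0.64 ± 0.13 SE with limma adjusted p = 0.0080. Tnfrsf14, which encodes the BTLA partner HVEM, stood at 1307, 1343, 1554, 1758 and 1276 in the WT libraries in the same order, and at 1107, 891 and 857 in Crebbp-KO. Its groups did not overlap either, and the log2 fold change was -0.60 ± 0.13 SE (limma adjusted p = 0.0144).

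Tnfrsf13c was 39587, 38071, 36713, 30358 and 39669 in WT and 29463, 25266 and 23189 in Crebbp-KO. The lowest WT library, WT_46, stood just above the highest knockout library, CBP-KO_1. The log2 fold change was -0.51 ± 0.10 SE (limma adjusted p = 0.00716), and it was -0.57 without WT_46 and p300-KO_18. Its relative Tnfrsf13b, the receptor for BAFF and APRIL, was 10705, 10841, 8489, 5271 and 11409.9 in WT against 10609, 9991 and 9499 in Crebbp-KO. WT_46 was the lowest library of all for Tnfrsf13b, and the log2 fold change of 0.15 (limma adjusted p = 0.711) turned to -0.04 without it. Its 95% interval ran from -0.27 to 0.58, which leaves room for a rise or a fall.

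Fas, the death receptor, stood at 6275, 6912, 6963, 7121 and 6836 in WT and at 6127, 5364 and 4736 in Crebbp-KO. The groups did not overlap, with CBP-KO_1 close to the lowest WT library, WT_4 (log2 -0.34 ± 0.07 SE, limma adjusted p = 0.0137). Tnfrsf1b, the TNF receptor without a death domain, was 2186, 1857, 1847, 1930.2 and 1875 in WT and 1514, 1588 and 1509 in Crebbp-KO. Its knockout libraries lay close together and below all of WT (log2 -0.33 ± 0.07 SE, limma adjusted p = 0.0105). Cd27 stood at 115 ± 14.6 in WT (n = 5) and 115 ± 17.8 in Crebbp-KO (n = 3), with a 95% interval of the log2 difference from -0.49 to 0.48.

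Each of the 5 genes that fell had p = 0.0179 in the exact permutation test (two-sided, unadjusted), the smallest that 5 against 3 libraries allow. This p rests on the same separation of the libraries as the absence of overlap and is not separate support. Groups did not overlap for these 5 of the 7 tested receptors, all lower in Crebbp-KO, while 8.47% of all tested genes were lower without overlap and 8.43% higher. Leaving out CBP-KO_55 ended the calls of Cd40 (limma adjusted p = 0.0529), Tnfrsf14 (0.0802), Fas (0.0718) and Tnfrsf1b (0.0537) and left that of Tnfrsf13c, while leaving out CBP-KO_53 ended those of Tnfrsf14 (0.0742) and Fas (0.0591). In the 7 Xist-high libraries alone Tnfrsf1b did not pass (limma adjusted p = 0.0795), with a log2 fold change of -0.36.

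**Figure D2:**
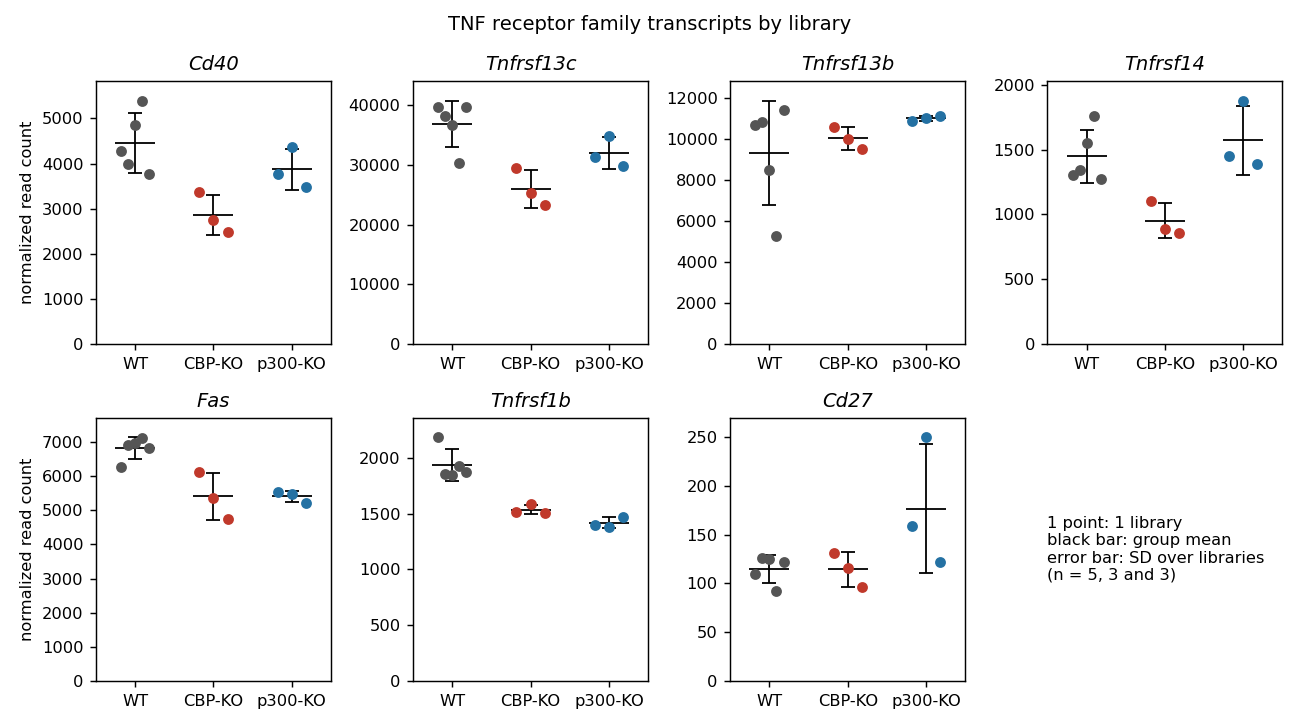
Normalized read counts of the 7 tested receptors in WT (n = 5), CBP-KO (n = 3) and p300-KO (n = 3), with 1 point for each library, the group mean as a black bar and the SD as an error bar. Cd40, Tnfrsf13c, Tnfrsf14, Fas and Tnfrsf1b are lower in every CBP-KO library than in every WT library, and Fas and Tnfrsf1b are so in p300-KO too.

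Loss of Ep300 was compared with the same 5 WT libraries, so both knockout comparisons share their controls. Relative to its WT mean, Fas fell by 20.7% and Tnfrsf1b fell by 26.7%, and 5 of the 7 tested receptors did not pass. Among all tested genes 11.9% passed, 6.09% lower and 5.84% higher. The median log2 fold change was -0.20 over the 7 receptors and -0.01 over all tested genes.

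Fas stood at 5527, 5489 and 5217 in p300-KO_18, p300-KO_287 and p300-KO_289, all below the lowest WT library at 6275 (log2 -0.33 ± 0.07 SE, limma adjusted p = 0.0118). Tnfrsf1b stood at 1403, 1385 and 1474, all below the lowest WT library at 1847 (log2 -0.45 ± 0.07 SE, limma adjusted p = 0.00143). Both had an exact permutation p of 0.0179 (unadjusted, two-sided), which rests on the same separation of the libraries as the absence of overlap. These were the 2 receptors whose groups did not overlap, all lower, against 9.40% of all tested genes lower and 9.63% higher without overlap. The call of Fas ended without p300-KO_289 (limma adjusted p = 0.0577) and in the Xist-high libraries alone (0.0646), where the log2 value was still -0.33.

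Cd40 stood at 3774, 4364 and 3476 in Ep300-KO. Of these 3 libraries 2 lay below all WT libraries, p300-KO_18 only just, with WT_288 at 3779, and the groups overlapped. The log2 fold change was -0.20, with a 95% interval from -0.47 to 0.07 (limma adjusted p = 0.351). Tnfrsf13c stood at 31264, 34872 and 29764, within reach of WT_46 at 30358 (log2 -0.20, limma adjusted p = 0.212). It passed without WT_46, at log2 -0.27 (limma adjusted p = 0.0453), and with library weights, at log2 -0.27 (adjusted p = 0.0373). Tnfrsf13b was 10870.1, 11013 and 11137 (log2 0.29, limma adjusted p = 0.390), with the 3 libraries closer to each other than those of WT. Tnfrsf14 stood at 1447, 1878 and 1387 (log2 0.12, 95% interval -0.17 to 0.40, limma adjusted p = 0.651). Cd27 was 159, 250.1 and 122, with p300-KO_287 the highest of all libraries and p300-KO_289 within the WT range of 91.9 to 126 (log2 0.56, limma adjusted p = 0.129). Cd27 lies within the span of Vamp1 on the other strand, without shared exons, and the library kit does not keep strand.

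The knockouts were then set against each other in the same fit. Tnfrsf14 was higher in Ep300-KO than in Crebbp-KO, at 1571 ± 268 against 952 ± 135 normalized counts (SD, n = 3 each), a log2 difference of 0.72 ± 0.15 SE (limma adjusted p = 0.0101). It was the 1 receptor of 7 that passed, where 9.42% of all tested genes passed, 4.63% higher and 4.79% lower in Ep300-KO. The call ended without CBP-KO_55 (limma adjusted p = 0.0507). Cd40 was higher in Ep300-KO by a log2 of 0.44 (95% interval 0.13 to 0.74) and Tnfrsf13c by 0.30 (0.07 to 0.54), neither past the test (limma adjusted p = 0.0679 and 0.101). Both passed without WT_46 (adjusted p = 0.0376 and 0.0385), without CBP-KO_1 (0.0348 and 0.0479) and with library weights (0.0172 and 0.0215), and Cd40 also by DESeq2 (adjusted p = 0.0227).

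The knockout libraries did not overlap for 5 receptors. Tnfrsf14, Cd40, Tnfrsf13c and Tnfrsf13b were higher in Ep300-KO, against 15.6% of all tested genes, and Tnfrsf1b was lower, against 15.5%. With 3 against 3 libraries the smallest exact two-sided permutation p is 0.10, and groups that do not overlap always reach it, as these 5 did. Fas was at the same level in both knockouts, 5411 ± 169.5 and 5409 ± 696 (n = 3 each), with a 95% interval of the log2 difference from -0.17 to 0.19.

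**Figure D3:**
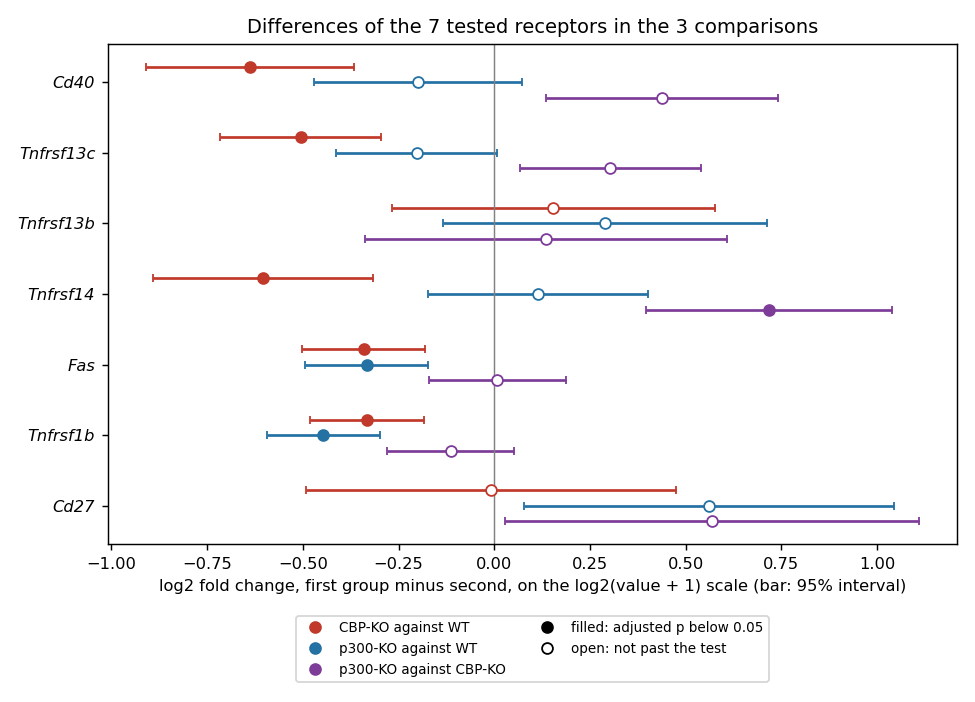
Log2 fold change of the 7 tested receptors on the x axis, as the first group minus the second, with 95% intervals from limma and 1 colour for each of the 3 comparisons. Filled points passed the test: 5 in CBP-KO against WT, 2 in p300-KO against WT, and Tnfrsf14 between the knockouts.

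Cd40 and Tnfrsf14 had the same highest and the same lowest library in every group. WT_46, CBP-KO_1 and p300-KO_287 held the highest values of both genes in their groups, and WT_288, CBP-KO_55 and p300-KO_289 the lowest. In Crebbp-KO, CBP-KO_1 was highest and CBP-KO_55 lowest in 6 of the 7 tested receptors. The share of all tested genes with this order was not counted. Genes outside the family, such as Relb and Nfkbie, had it too, while Traf1 did not. CBP-KO_1 was also the Crebbp-KO library in which the Y-linked sum exceeded Xist. Tnfrsf13b and Tnfrsf13c, which share the ligand BAFF, also had WT_288 as their highest and WT_46 as their lowest WT library. The level of Tnfrsf13b divided by that of Tnfrsf13c, both per kilobase, was 0.125 in WT_46 and between 0.167 and 0.208 in the other WT libraries. It was between 0.260 and 0.296 in Crebbp-KO and between 0.228 and 0.270 in Ep300-KO, so neither knockout overlapped with WT. This ratio was chosen after its values were seen and was not tested.

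**Figure D4:**
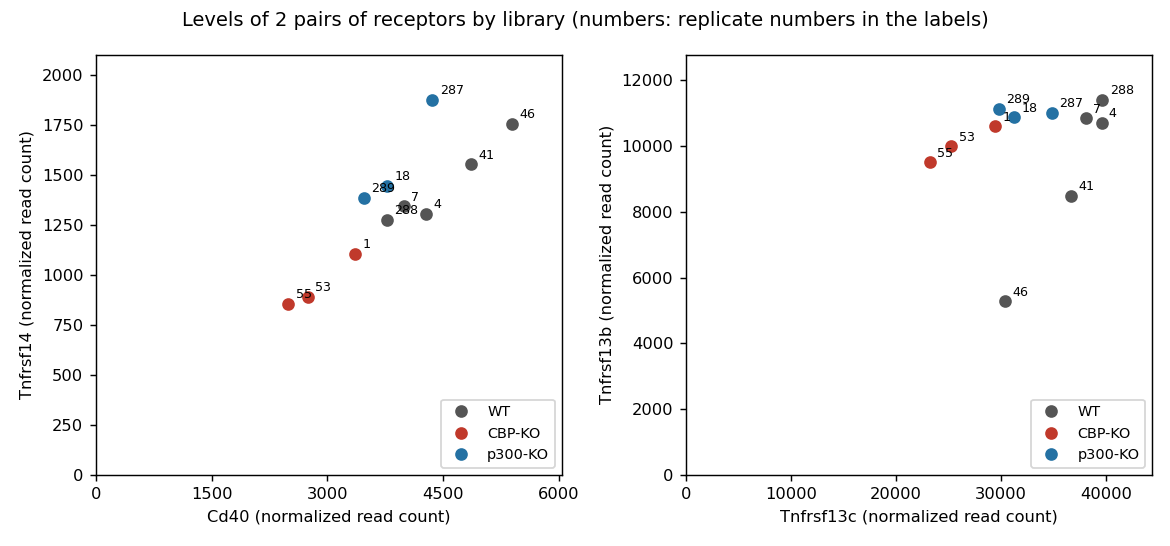
Normalized read counts of Tnfrsf14 against Cd40 (left) and of Tnfrsf13b against Tnfrsf13c (right), with 1 point for each of the 11 libraries, coloured by group and marked with the replicate number. CBP-KO_55 and CBP-KO_53 lie lowest for Cd40 and Tnfrsf14, and WT_46 lies apart from the other WT libraries for Tnfrsf13b, at 5271.

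Genes with the most similar pattern over the 11 libraries were sought among 11995 tested genes, as a description that rests in part on the group differences. For Cd40 they were Kif3b (Pearson r = 0.98) and Birc3 (r = 0.97), an inhibitor of apoptosis that works in the signalling complex of TNF receptors. After the group means were taken off, these were 0.96 and 0.95. For Tnfrsf14 they were St6galnac2 (r = 0.97) and Il3ra (0.96), and for Tnfrsf13c Tusc3 (0.98) and Pdlim2 (0.96). For Fas they were Cd69 (0.96), an early activation marker, and Alcam (0.95), and for Tnfrsf1b Def6 (0.97) and Msra (0.97). The value for Def6 was 0.67 after the group means were taken off.

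The lists that follow were chosen with earlier results of these data known, so shares above those of all genes are only a description. The other receptors of the family did not move in 1 direction. Of 18, 11 were tested, and in Crebbp-KO 2 fell and 1 rose, or 27.3% called where 8.36% of all tested genes were. Tnfrsf8, which encodes CD30, fell from 691 ± 160 to 351 ± 64.6 (log2 -0.96, limma adjusted p = 0.00735), and Tnfrsf26 from 738 ± 87.5 to 409 ± 23.3 (log2 -0.85). Tnfrsf10b, the TRAIL death receptor and a target of p53, rose from 159 ± 49.5 to 308 ± 53.8 (log2 0.99, limma adjusted p = 0.0209). Its call ended without CBP-KO_53 (adjusted p = 0.0585) or CBP-KO_55 (0.114). In Ep300-KO Tnfrsf21, the death receptor DR6, rose from 295 ± 113 to 804 ± 92.1 (log2 1.56, limma adjusted p = 0.00733), and 10 did not pass, which is 9.09% called and near the 11.9% of all tested genes. In Crebbp-KO Tnfrsf21 stood at 530 ± 87.9, above every WT library, without passing (log2 0.95, limma adjusted p = 0.0869). Between the knockouts it did not pass either (limma adjusted p = 0.318). The list had a median log2 of -0.06 in Crebbp-KO and 0.29 in Ep300-KO.

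Among the ligands of the family, listed together with Btla, 12 of 19 were tested, and in Crebbp-KO 4 fell and 0 rose, with a median log2 of -0.31. That is 33.3% lower, where 4.88% of all tested genes were, and 1 was called without CBP-KO_53 or CBP-KO_55 and 2 without WT_41. Tnf fell from 1971 ± 94.97 to 1625 ± 95.9 (log2 -0.28, limma adjusted p = 0.0194). The lymphotoxin genes fell too, Lta from 5331 ± 1013 to 3689 ± 353 (log2 -0.52) and Ltb from 14211 ± 794 to 11267 ± 1693 (log2 -0.34). All 3 calls ended without CBP-KO_55 (limma adjusted p from 0.106 to 0.119), those of Tnf and Ltb also without CBP-KO_53 (0.0542 and 0.0789), and that of Lta also without WT_41 (0.0530). Cd70, the ligand of Cd27, fell to 5.25 ± 5.47 from 23.1 ± 8.51, a call that ended in 16 of 23 alternatives (limma adjusted p up to 0.164).

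In Ep300-KO 1 ligand rose and 1 fell, or 16.7% called where 11.9% of all tested genes were, and 1 was called without p300-KO_289. Ltb moved the other way than in Crebbp-KO, rising to 18141 ± 689 (log2 0.35, limma adjusted p = 0.0150, and 0.0686 without p300-KO_289), and the knockouts differed by a log2 of 0.70 (adjusted p = 0.000668). Tnfsf18, the GITR ligand, fell from 91.4 ± 23.2 to 36.6 ± 1.63 (log2 -1.26, limma adjusted p = 0.00387). Tnf was 2083 ± 88.8 in Ep300-KO and differed between the knockouts by a log2 of 0.36 (limma adjusted p = 0.0092). Tnfsf13b, which encodes BAFF, stood at 25.2 ± 6.38 in WT, 30.3 ± 7.39 in Crebbp-KO and 11.3 ± 5.44 in Ep300-KO. It was lower in Ep300-KO than in Crebbp-KO (log2 -1.40, limma adjusted p = 0.0425) and not past the test against WT (adjusted p = 0.0536). Btla stood at 22839 ± 1906 in WT, 18776 ± 1841 in Crebbp-KO and 20660.0 ± 3553 in Ep300-KO. It did not pass in Crebbp-KO or Ep300-KO against WT (limma adjusted p = 0.115 and 0.382) or between the knockouts (0.537).

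Adaptors and enzymes that carry the signal of these receptors were all measured, 34 of 34. In Crebbp-KO 8 fell and 0 rose, and the median log2 of the list was -0.09. That is 23.5% lower, where 4.88% of all tested genes were, and 4 were called without WT_4, WT_41, CBP-KO_53 or CBP-KO_55. Traf1, a TRAF adaptor induced by NF-kB, fell from 8963 ± 593 to 6051 ± 734 (log2 -0.57, limma adjusted p = 0.000706), and Map3k14, the NIK kinase of the noncanonical pathway, from 4803 ± 338 to 3698 ± 221 (log2 -0.38). Traf4 (log2 -0.59) and Bid (-0.34), which links FAS to the mitochondrial death pathway, fell as well. In Ep300-KO 4 fell and 0 rose, with a median log2 of -0.06. The share called, 11.8%, was near the 11.9% of all tested genes, and 1 was called without p300-KO_18 or p300-KO_289 and 2 without p300-KO_287. Map3k14 (log2 -0.28) and Traf4 (-0.41) were again among those that fell, with Otulin (-0.29), a deubiquitinase of linear chains. Of these 3, Otulin alone kept its call without each single library in turn, and Traf4 stood at adjusted p up to 0.128. Traf1 was higher in Ep300-KO than in Crebbp-KO (log2 0.42, limma adjusted p = 0.00769).

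Of 19 NF-kB subunits, inhibitors and targets, all tested, 6 fell and 1 rose in Crebbp-KO, with a median log2 of -0.29. That is 36.8% called, where 8.36% of all tested genes were, and 2 were called without CBP-KO_55 and 3 without CBP-KO_53. Bcl3, an atypical NF-kB cofactor, fell from 3252 ± 863 to 1787 ± 126 (log2 -0.83, limma adjusted p = 0.0105) and Nfkbie, an inhibitor, from 5436 ± 729 to 3729.5 ± 496 (log2 -0.54, adjusted p = 0.0119). The subunits of the noncanonical pathway fell too, Nfkb2 from 10247 ± 2118 to 6009 ± 915 and Relb from 3208 ± 222 to 2032 ± 411. The calls of Bcl3 (limma adjusted p = 0.0575) and Nfkbie (0.0718) ended without CBP-KO_55, and that of Nfkbie also without CBP-KO_53 (0.0506). The chemokine gene Ccl22 rose from 65.9 ± 26.9 to 186 ± 86.0 in Crebbp-KO, a call lost in 8 of 24 alternatives (limma adjusted p up to 0.190), and to 325 ± 186 in Ep300-KO (log2 2.24, adjusted p = 0.00368). In Ep300-KO it was the 1 gene of the 19 that passed, or 5.26% where 11.9% of all tested genes did, and the median log2 was -0.07.

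The smaller set of Xist-high libraries, which includes p300-KO_18 with its Y-linked transcripts, ended further calls among these lists. In Crebbp-KO they were those of Tnfrsf8 (limma adjusted p = 0.123), Tnfrsf10b (0.155), Tnf (0.0943), Lta (0.0769), Bid (0.0578) and Traf4 (0.0532). In Ep300-KO they were those of Tnfrsf21 (limma adjusted p = 0.0720), Ltb (0.0750), Tnfsf18 (0.0711), Otulin (0.0624), Map3k14 (0.0593) and Traf4 (0.134). Traf1, Relb, Nfkb2, Map3k14 and Tnfrsf26 in Crebbp-KO kept their calls in all 24 alternatives, Xist-high libraries included.

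**Figure D5:**
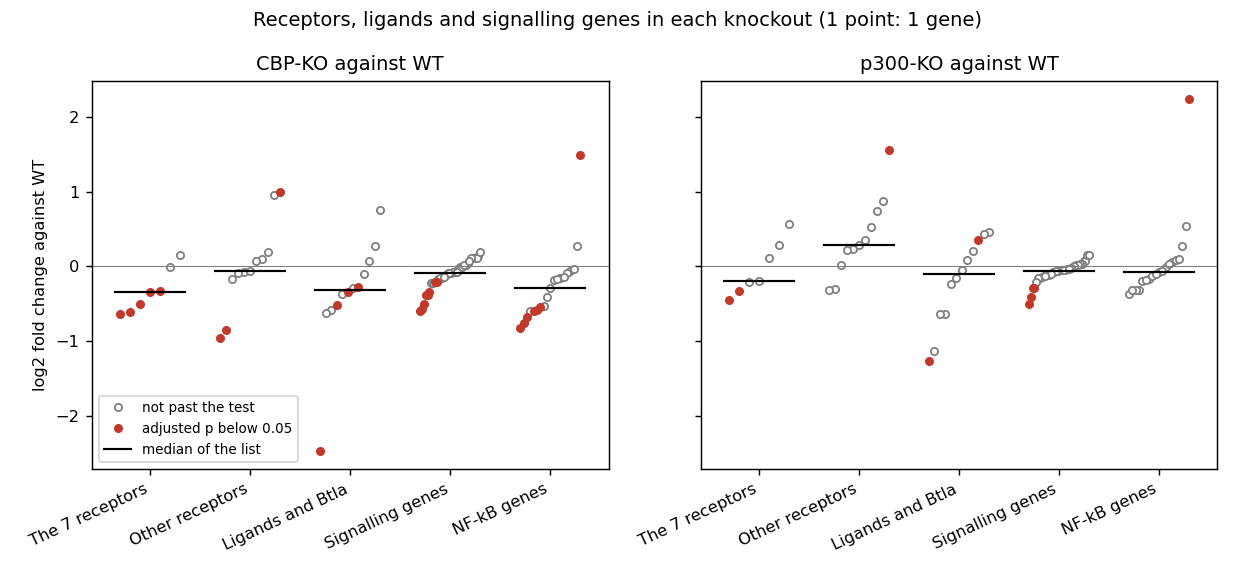
Log2 fold change against WT on the y axis for the 7 tested receptors and for the lists of other receptors, ligands with Btla, signalling genes and NF-kB genes, with CBP-KO on the left and p300-KO on the right. Each point is 1 gene, filled where the adjusted p was below 0.05, and the black line is the list's median, -0.34 for the 7 receptors in CBP-KO and -0.20 in p300-KO.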

How the data were processed

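RNA of sorted splenic germinal center B cells was measured in 11 libraries. Per the submitters' processing notes, CASAVA 1.8, HISAT2, featureCounts and DESeq2 were used with the build mm10, and settings are not given in the sources used here. Per the labels' protocols, libraries were prepared with the TruSeq RNA v2 kit, an unstranded one. The deposited values are a signal: reads per gene scaled by the authors with 1 factor for each library. In 100% of values, whole multiples of 1 step were found within a tolerance of 1e-06, so whole reads were recovered and summed as depth. Of the recovered read numbers from 1 to 20, 77.9% were even, so that 2 reads may stem from 1 fragment.

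Of 48593 genes, 16515 with a mean over the 11 libraries of 10 or more entered limma 3.58.1 on log2(value + 1) with a variance trend, in 1 fit with a mean per group. Calls had a p below 0.05 after Benjamini-Hochberg adjustment over all these genes, in two-sided tests. Alternatives were another pseudocount, filter or scaling, library weights, fewer libraries, a covariate of 2 levels for Xist or Y, edgeR 4.0.16 and DESeq2 1.42.0. The procedure was tested on simulated data. These counts were drawn independently for each gene and library, without effects shared across the genes of a library. Exon lengths and positions came from GENCODE on GRCm38, the same build as mm10. The fits ran in R 4.3.3, tables were handled with pandas 2.3.3 under Python 3.11.15, and figures were drawn with matplotlib 3.10.9.

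The receptors and lists were chosen with earlier results of these data known. Named were all 10 receptors, Crebbp and Ep300, up to 4 called genes with the smallest p of each list in each knockout, and the 2 genes most alike to each called receptor by Pearson r, without predicted genes and pseudogenes. Genes named beyond this rule, among them Tnfsf13b and Btla and the cell markers, were chosen after their values were seen. Some genes of the lists are counted but not reported here by name, and were left out of the marker sums of B cells and germinal center B cells.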

Additional observations from a re-analysis of the deposited data

Results flagged for a closer look

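Of 28 named genes examined within the 5 WT libraries, 1 held a library whose gap to the nearest other was large for the group's range, where chance gives about 1 in 20 groups. Tnfrsf1b, the TNF receptor without a death domain, was 2186 in WT_4 against 1847 to 1930.2 in the other WT libraries. What sets this library apart was not tested.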

How the results depend on the processing

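Over 21 receptor values (7 receptors in 3 comparisons) and 24 alternatives each, 471 of 504 recomputed values kept direction and call, 10 lost a call, 9 gained one and 14 changed sign, all 14 where the receptor had no call in that comparison. The 5 receptors called in Crebbp-KO against WT ranged from 1 to 5 without single libraries, the 2 in Ep300-KO against WT from 1 to 3, and the 1 between the knockouts from 0 to 3. Xist-high libraries alone gave 1 in Ep300-KO against WT. Between the knockouts library weights gave 3 and DESeq2 gave 2. Over all genes, the 1380 calls of Crebbp-KO became 2730 with library weights, 665 in the Xist-high libraries and 642 to 1541 without single libraries. The 1970 calls of Ep300-KO became 644 in the Xist-high libraries and 1169 to 2027 without single libraries. The 1556 between the knockouts became 2808 with weights, 483 in the Xist-high libraries, 2349 with DESeq2 and 745 to 1954 without single libraries.

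Signs changed as follows, and the cause was not tested. Tnfrsf13b in Crebbp-KO against WT was -0.039 without WT_46 and p300-KO_18, and -0.039 to 0.24 without single libraries. Cd27 there was 0.033 after quantile normalization, 0.018 with the Xist or Y covariate, and -0.11 to 0.11 without single libraries. Tnfrsf14 in Ep300-KO against WT was -0.039 in the Xist-high libraries and -0.020 to 0.20 without single libraries. Fas between the knockouts was -0.0075 without WT_46 and p300-KO_18, and -0.084 to 0.10 without single libraries. No paired analysis was possible because no replicate number occurs in more than 1 group. Depth limits Tnfrsf17, Tnfrsf1a and Ltbr, which had at most 14 reads in any library.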
